A study of Homo sapiens with 6 samples.

Results

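Of the 13626 merged peak regions of 6 CUT&Tag libraries from HepG2 cells, 797 carried a peak of both H4K12la libraries, no peak of any ENO1 or HDAC1 library, and lay over 1 kb from both outer ends of every protein-coding gene. They are called H4K12la-only distal regions. HepG2 is an established human hepatocellular carcinoma line, and CUT&Tag uses an antibody to direct a transposase that cuts and tags the DNA around its target. The antibodies recognised H4K12la, which is histone H4 lactylated at lysine 12, the deacetylase HDAC1, or ENO1, the glycolytic enzyme enolase 1. Each of the 3 targets had 2 libraries, all from the same line with no treatment named in the labels. Nothing in the labels gives the cultures behind the replicates, so the spread between them, and any p-value, may be technical. The regions were chosen by the presence and absence of called peaks and by distance from gene ends, so the H4K12la peaks in them and the missing ENO1 and HDAC1 peaks are not results.

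Histone lactylation is the transfer of a lactyl group, derived from lactate, to lysines of histones. Like acetylation it neutralises the charge of the lysine, and lactylated histones have been mapped mostly to promoters and enhancers of active genes. Class I histone deacetylases, among them HDAC1, can remove lactyl as well as acetyl groups. The outer ends of a gene record are not the only places where transcription begins, since many genes have further promoters inside the gene, and enhancers often lie in introns or between genes.

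In all, 3568 merged regions had a peak of both H4K12la lists, and 1609 of these (45.1%) had no peak of the other 2 targets. The 1609 divided into 812 regions at the ends of protein-coding genes and the 797 regions away from them. Over the 24 chromosomes the H4K12la lists held 5459 and 7568 peaks in replicates 1 and 2, the HDAC1 lists 5727 and 4567, and the ENO1 lists 1592 and 1189. The 797 regions took up 799 peaks (14.6%) of H4K12la replicate 1 and 801 (10.6%) of replicate 2. No read counts were used, so depth is unknown, and a region without an HDAC1 or ENO1 peak may hold signal of either below the calling threshold.

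About 1 in 5 of the H4K12la-only distal regions lay at an annotated transcript start that is not an outer end of a protein-coding gene. The RefSeq promoter table used here lists 1 or more starts for a gene. The 27 regions on a chromosome without entries were set aside, which left 770. Of these, 150 overlapped the window of 1 kb around a listed start (19.5%, with a Wilson 95% interval of 16.8 to 22.4). Protein-coding starts inside their own genes accounted for 94 regions (12.2%, 10.1 to 14.7) and starts of long noncoding RNA (lncRNA) genes for 69 (8.96%, 7.14 to 11.2), with 13 regions at both kinds. A region of the median width of 728 bp, placed at each possible midpoint outside the gene-end windows, would meet a listed start at 1.33% of midpoints and a protein-coding start at 0.417%, a comparison given without a test. The table lacks entries for some genes, so the shares may be too low.

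The sequences at some of these starts are shown because they are the internal and noncoding promoters on which the mark lay. All come from RefSeq for GRCh38.p14, run from 250 bases before to 50 bases after the start, and lie whole within a region. Capitals mark matches, on either strand, to 6 motifs: the CAAT box (CCAAT), the GC box (GGGCGG), the TATA box (TATAAA), the AP-1 motif (TGACTCA), the E-box (CACGTG) and the forkhead core (TGTTTAC). No match of 1 motif was removed for overlapping another. BAZ2B, a bromodomain protein gene, is read from the minus strand (chr2:159615516-159615815), and BAZ2B-AS1, its antisense lncRNA, from the plus strand of the same region (chr2:159615044-159615343). MIA3, whose product exports collagen from the endoplasmic reticulum (chr1:222644079-222644378), LOC105370460, a lncRNA (chr14:39474590-39474889), and TET1, a DNA demethylation enzyme (chr10:68600018-68600317), are on the plus strand.
BAZ2B: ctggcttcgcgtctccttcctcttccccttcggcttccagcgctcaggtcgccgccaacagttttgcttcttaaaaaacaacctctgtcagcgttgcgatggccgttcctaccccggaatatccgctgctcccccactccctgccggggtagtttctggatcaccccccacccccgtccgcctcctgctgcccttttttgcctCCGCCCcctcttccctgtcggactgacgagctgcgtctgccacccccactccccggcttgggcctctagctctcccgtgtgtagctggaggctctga
BAZ2B-AS1: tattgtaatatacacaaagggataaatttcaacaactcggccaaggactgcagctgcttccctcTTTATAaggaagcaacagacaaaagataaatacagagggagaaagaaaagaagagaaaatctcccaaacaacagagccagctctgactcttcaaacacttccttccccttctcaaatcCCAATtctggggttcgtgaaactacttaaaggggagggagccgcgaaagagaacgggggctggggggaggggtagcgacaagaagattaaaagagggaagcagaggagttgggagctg
MIA3: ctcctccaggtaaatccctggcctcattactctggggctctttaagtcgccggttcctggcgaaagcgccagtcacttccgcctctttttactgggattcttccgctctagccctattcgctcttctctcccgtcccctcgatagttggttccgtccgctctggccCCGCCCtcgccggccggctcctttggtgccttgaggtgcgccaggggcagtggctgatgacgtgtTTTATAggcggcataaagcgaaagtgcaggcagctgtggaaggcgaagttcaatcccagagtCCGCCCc
LOC105370460: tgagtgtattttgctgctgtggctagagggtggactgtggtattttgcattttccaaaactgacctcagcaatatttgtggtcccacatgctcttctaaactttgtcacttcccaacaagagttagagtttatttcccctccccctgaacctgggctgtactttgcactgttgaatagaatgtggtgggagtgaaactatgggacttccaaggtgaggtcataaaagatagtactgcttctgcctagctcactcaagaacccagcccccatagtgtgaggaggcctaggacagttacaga
TET1: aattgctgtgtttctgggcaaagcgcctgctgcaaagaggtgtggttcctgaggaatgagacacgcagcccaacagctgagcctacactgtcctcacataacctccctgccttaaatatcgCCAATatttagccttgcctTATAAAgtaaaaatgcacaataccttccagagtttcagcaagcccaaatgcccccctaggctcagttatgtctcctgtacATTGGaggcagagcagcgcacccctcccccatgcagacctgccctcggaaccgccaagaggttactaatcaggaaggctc

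The 5 promoters differ in base composition. BAZ2B holds 63.0% G or C and 20 CpG pairs in its 300 bases, MIA3 59.7% and 21 pairs, TET1 51.7% and 6 pairs, BAZ2B-AS1 46.3% and 6 pairs, and LOC105370460 46.3% with no CpG pair and no match to the 6 motifs. Over all 94 protein-coding promoter entries that touched a region the median was 62.2% G or C with 20 CpG pairs. Over all 22175 protein-coding entries listed it was nearly the same, 62.3% with 21 pairs. Over the 5319 of these that lie over 1 kb inside their gene it was 57.7% with 10 pairs. The 58 lncRNA entries in the regions had a median of 60.5% with 15.5 pairs, and the 12910 lncRNA entries listed 50% with 5 pairs. The GC box stood in 47.9% of the protein-coding entries in the regions, against 42.3% of those over 1 kb inside their gene and 56.3% of all protein-coding entries. It stood in 56.9% of the lncRNA entries in the regions, against 25.5% of all lncRNA entries, and in 44.9% of all 35085 entries together. The CAAT box stood in 33.0% of the protein-coding and 27.6% of the lncRNA entries in the regions, against 34.6% of all entries. In these 2 sets the TATA box stood in 8.51% and 10.3%, against 9.47% of all protein-coding and 15.1% of all lncRNA entries. In the same order, the AP-1 motif stood in 5.32% and 10.3%, against 4% and 6.57%. The E-box stood in 7.45% and 3.45%, against 8.34% and 5.38%. The forkhead core stood in 0 of 94 and 3 of 58 entries, against 2.85% and 4.42%. A match is only a run of letters, some entries overlap each other.

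Ranked by the lower of the 2 replicates' folds, the strongest region at a protein-coding start was at OCIAD1, which encodes a protein of mitochondria and endosomes. Its region (chromosome 4, 48831054 to 48831559) had 5.78-fold enrichment in H4K12la replicate 1 and 5.85-fold in replicate 2, and its start lay 25.9 kb inside the outer start of the gene. Fold enrichment is the peak caller's own ratio of summit signal over background within a library. The libraries were not scaled to each other, so the folds of both replicates are set side by side as a description, and ranks go by the lower of the 2. RAD51AP2 followed with 5.78-fold and 5.17-fold, its start 19.4 kb inside the gene. The BAZ2B region (chromosome 2, 159615043 to 159616465) had 5.16-fold and 5.63-fold and covers the starts of both the sense and the antisense gene shown above. It sits 96.9 kb inside BAZ2B, and its summits lay 80 and 79 bp before the BAZ2B start in replicates 1 and 2. DENND2B, a gene of the DENN-domain exchange factors, had 5.08-fold and 5.96-fold, with the start 116 kb inside the gene. MIA3 had 5.24-fold and 5.06-fold over a region of 1460 bp, and ATP2C1, the calcium pump gene of the Golgi, 4.62-fold and 6.44-fold. NFU1, which acts in iron-sulfur cluster assembly, had 5.02-fold and 4.72-fold, and RCBTB2 4.57-fold and 6.81-fold. These are given because they are among the strongest at such starts.

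Of the 501 genes on 14 lists of liver function, metabolism, signalling and chromatin, 5 had a region at an internal start, against 94 of the 15842 protein-coding genes with an entry in the promoter table. The 501 include genes with and without such an entry, so the 2 bases are unlike. Neither count was tested. At DNMT3A, a DNA methyltransferase gene, the region (chromosome 2, 25251328 to 25252254; 4.61-fold and 4.48-fold) covered a start 90.5 kb inside the gene, with summits 357 and 352 bp past it. TET1, whose product oxidises methylcytosine, had 4.05-fold and 3.93-fold at a start 39.9 kb inside. LIN28B, an inhibitor of let-7 microRNAs that is active in fetal liver, had 3.90-fold and 4.51-fold at a start 3.94 kb inside. At APC, a negative regulator of Wnt signalling, both summits lay within 12 bp of a start 30.4 kb inside the gene (3.65-fold and 4.36-fold). ACSL5, an acyl-CoA synthetase gene of fatty acid activation, had 2.73-fold and 3.23-fold at a start 2.09 kb inside.

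Because the regions at starts had to overlap the window of 1 kb, their summits could lie only near a start, and the distances are a description. More summits lay past the start than before it. In replicate 1, 110 of the 150 summits (73.3%) lay within 500 bp of the nearest start and 93 (62.0%) lay downstream, with a median of 74.5 bp past the start. Replicate 2 gave 112 (74.7%), 94 (62.7%) and a median of 94 bp. In the 680 H4K12la-only regions at gene ends that had a listed start, 72.5% and 72.6% of summits in replicates 1 and 2 lay downstream, with medians of 153 bp and 119 bp. The regions at starts were of ordinary strength: their median fold was 3.94 and 4.06 in replicates 1 and 2, against 3.93 and 4.01 in the 620 regions with no listed start. Their peaks had median widths of 592 and 643 bp, against 541 and 563 bp.

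**Figure D1:**
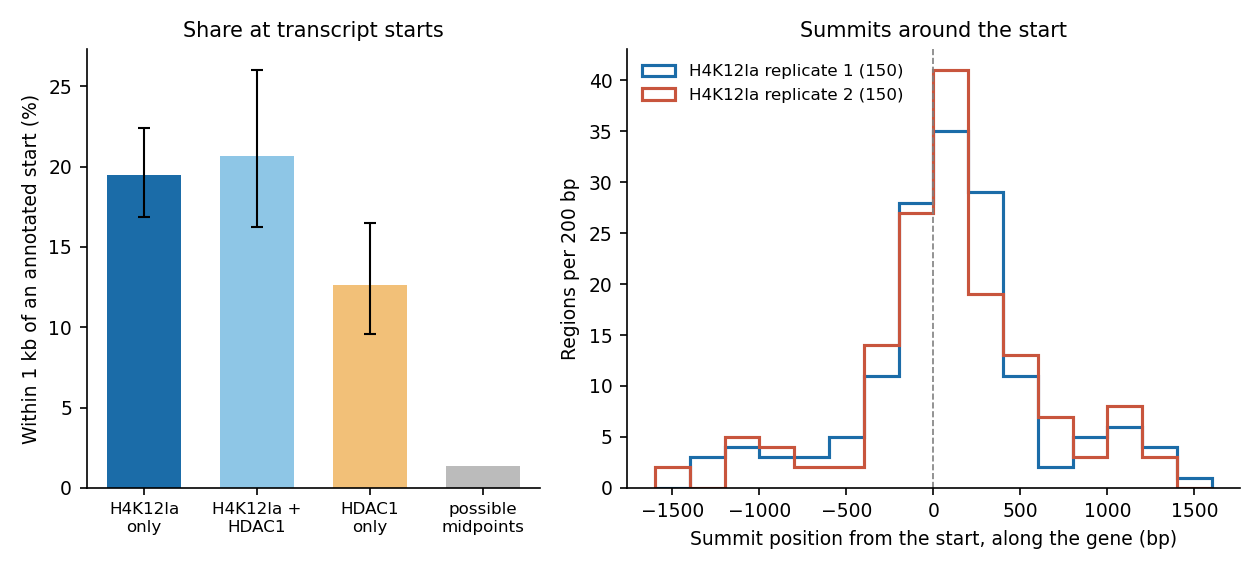
Left, the share of distal regions within 1 kb of an annotated transcript start (%), with Wilson 95% intervals as bars, for the H4K12la-only, shared and HDAC1-only regions outside chromosome 8, beside the share of possible midpoints of a region of median width. Right, the number of H4K12la-only distal regions per 200 bp by the position of the summit from the nearest start, for each replicate (150 regions); both replicates pile up just past the start.

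Set against the HDAC1-only distal regions, which have a peak of both HDAC1 libraries and none of the other 2 targets, the H4K12la-only regions lay at transcript starts more often: 150 of 770 (19.5%) against 45 of 356 (12.6%, 9.58 to 16.5), a difference of 6.84 percentage points (two-sided Fisher's exact test, adjusted p = 0.0102 over 2 tests). This comparison was added after the data were seen. It depended on the lists, since the difference was 2.84 points (Fisher's exact test, adjusted p = 0.54) with stronger peaks alone, at -log10 q of 5 or more, and 3.62 points (adjusted p = 0.237 by Fisher's exact test) where ends of every gene type were windowed. Without HDAC1 replicate 1 it was 12.5 points. It was 2.997 points without H4K12la replicate 1 (adjusted p = 0.126 by Fisher's exact test) and -1.06 points without replicate 2 (adjusted p = 0.571 by Fisher's exact test). The 261 regions that carried both H4K12la and HDAC1 in all 4 libraries and no ENO1 had a share of 20.7% (16.2 to 26.0), a difference of -1.21 points (H4K12la-only minus shared, Fisher's exact test, adjusted p = 0.719). Regions are the units of these tests and are not independent replicates. Regions found in 1 H4K12la list only, which the selection left out, lay at starts in 102 of 900 cases (11.3%) for replicate 1 and 246 of 1756 (14.01%) for replicate 2.

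Whatever their relation to starts, the H4K12la-only distal regions lay mostly inside genes. Of the 797, 497 (62.4%, 58.9 to 65.7) lay in the body of a protein-coding gene, 38 (4.77%) within 5 kb of one, 153 (19.2%) from 5 to 50 kb away and 109 (13.7%, 11.5 to 16.2) farther than 50 kb. Gene bodies hold 41.5% of the bases outside the gene-end windows, counted between the outermost annotated genes of each chromosome, and 39.1% of those bases lie over 50 kb from a gene. That is 0.407 regions per Mb of gene body, 0.174 per Mb between genes and 0.0947 per Mb beyond 50 kb. Assembly gaps and sequence where no peak could be called were not taken out of these bases. By library, regions with a peak of H4K12la replicate 1 and none of HDAC1 or ENO1 lay in gene bodies in 59.4% of 1736 cases, and those of replicate 2 in 61.8% of 2623.

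**Figure D2:**
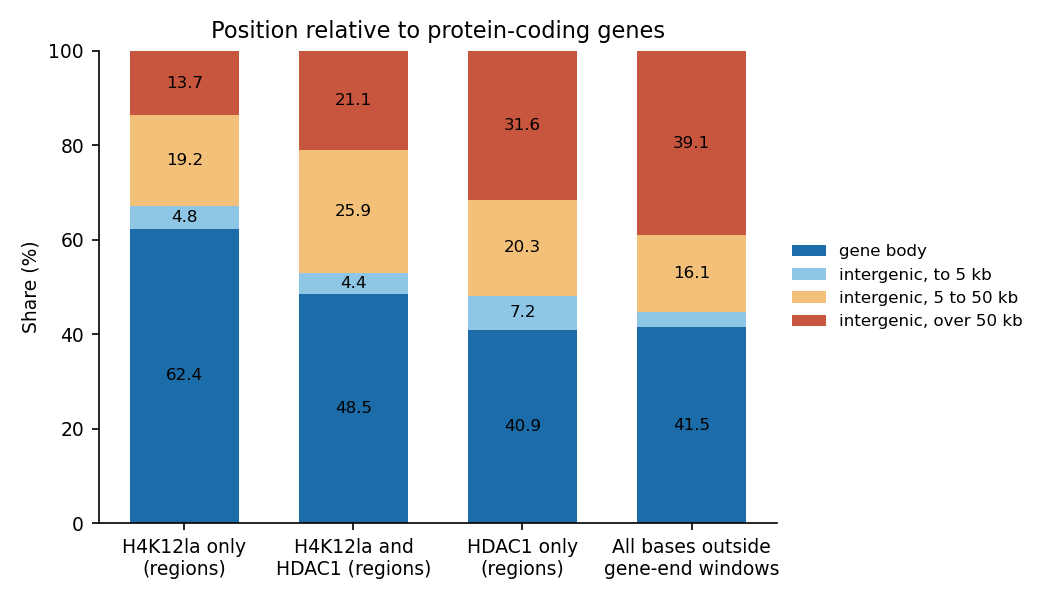
Share (%) of H4K12la-only, shared H4K12la and HDAC1, and HDAC1-only distal regions in 4 positions relative to protein-coding genes, beside the share of bases outside the gene-end windows. The H4K12la-only regions have the highest gene-body share (62.4%) and the lowest share over 50 kb from genes (13.7%).

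This position differed from that of the other distal classes, to which the same gene-end window was applied. The gene-body share was 62.4% of H4K12la-only regions, against 153 of 374 HDAC1-only regions (40.9%, 36.0 to 46.0), a difference of 21.4 percentage points (two-sided Fisher's exact test, adjusted p = 2.28e-11 over 6 tests). Over 50 kb from genes lay 13.7% of H4K12la-only and 31.6% of HDAC1-only regions (difference -17.9 points, Fisher's exact test, adjusted p = 1.57e-11). Without HDAC1 replicate 1 that difference was -34.6 points, and without ENO1 replicate 1 it was -26.9 points. The gene-body share of H4K12la-only regions was also 13.8 points above that of distal regions with both H4K12la and HDAC1, 131 of 270 (48.5%, 42.6 to 54.5; Fisher's exact test, adjusted p = 0.000161). Over 50 kb away the shares were 13.7% and 21.1% (57 regions; difference -7.43 points, adjusted p = 0.00616 by Fisher's exact test). That call was lost where ends of every gene type were windowed (-5.01 points, adjusted p = 0.0651 by Fisher's exact test), and the difference was -4.54 points without HDAC1 replicate 2 and -13.8 points without ENO1 replicate 2. Both gene-body differences passed under all 12 alternatives tried, with adjusted p up to 0.00999 against the shared class (Fisher's exact test) and 7.66e-07 against the HDAC1-only class. Among regions with no listed start the gene-body shares were 59.4% for H4K12la-only (368 of 620), 42.0% for shared (87 of 207) and 37.0% for HDAC1-only regions (115 of 311). The classes differ also by chromosome: chromosome 19 held 5 of the 797 H4K12la-only regions and 46 of the 374 HDAC1-only regions, and the part of that difference in the shares above was not tested.

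Within the host genes the regions were denser towards the start. Strand was known for 428 pairs of region and host gene, and in 261 (61.0%, 56.3 to 65.5) the region lay between the annotated outer start and the midpoint of the gene. The first 20% of the gene held 116 (27.1%) and the last 20% held 48 (11.2%). Without the regions at listed starts the values were 184 of 322 before the midpoint (57.1%, 51.7 to 62.4), 73 (22.7%) in the first 20% and 42 (13.0%) in the last 20%. The median distance from the outer start was 40.5 kb, with quartiles of 15.1 and 105 kb. Of the shared and HDAC1-only regions in genes, 57.0% of 107 and 60.2% of 128 lay before the midpoint. A lean towards gene starts was therefore not shown to differ between the classes, and it was not tested.

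**Figure D3:**
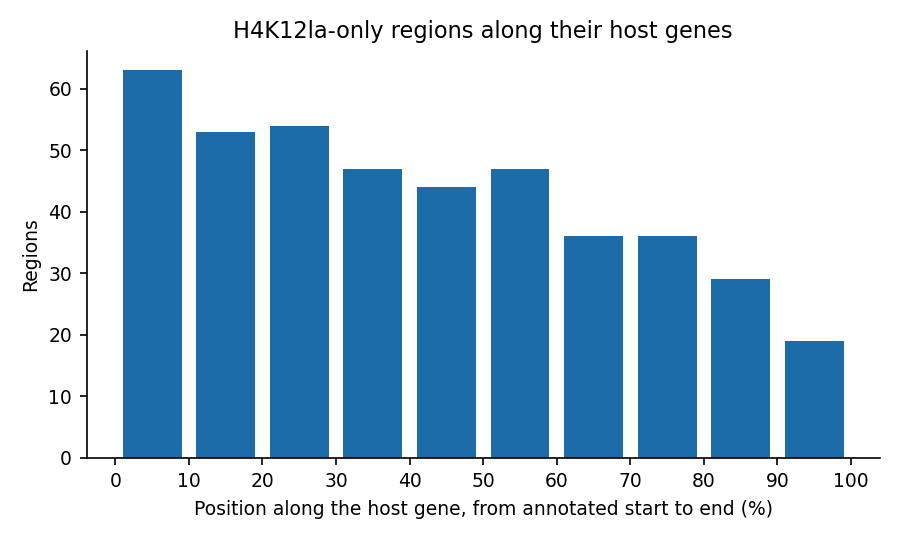
Number of H4K12la-only distal regions by position along the host gene (% of gene length from annotated outer start to end, 428 pairs of region and gene). Counts go down from 63 in the first 10% of the gene to 19 in the last.

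The 497 regions lay in 463 protein-coding genes, 2.33% of the 19866 in the table, and these hosts were long. Their median length was 128 kb, against 24.5 kb for all protein-coding genes. Of genes from 100 to 300 kb long, 202 of 2582 (7.82%) were hosts, and of genes up to 10 kb, 4 of 5582 (0.0717%). Per Mb of gene, the density was 0.530 regions in genes of 100 to 300 kb, 0.425 in those of 10 to 50 kb and 0.153 in those up to 10 kb, and it was 0.210 in the 773 genes longer than 300 kb. The windows of 1 kb around gene ends, where no region could lie, take up much of a short gene. The low share and density in short genes, and the length of the hosts, are therefore in part set by the selection. Most hosts (422) held 1 region, 35 held 2 and 6 held 3. The regions were spread out: 104 of the 797 (13.0%) had another within 50 kb, and 12 within 10 kb.

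The hosts with 3 regions were SOX5, PPP1R9A, DOCK1, GPC6, PARD3 and HIVEP1. In SOX5, a transcription factor gene of 1033 kb on chromosome 12, the regions lay 484, 517 and 612 kb from the outer start, with 4.19-fold and 3.95-fold, 5.04-fold and 5.11-fold, and 3.99-fold and 4.32-fold in replicates 1 and 2. PPP1R9A, which encodes the actin-binding protein neurabin, held its 3 regions within 120 kb of the start, the strongest at 4.76-fold and 4.97-fold. DOCK1, an activator of the GTPase Rac, reached 5.64-fold and 5.04-fold at 396 kb from its start. GPC6, a cell surface glypican gene of 1191 kb, had regions 17.6, 32.5 and 551 kb from its start, of which the middle was the strongest (5.27-fold and 5.13-fold). By the lower fold, the strongest region of PARD3, a cell polarity gene, had 3.94-fold and 4.33-fold, and that of HIVEP1, a zinc finger gene, 4.36-fold and 5.28-fold. The replicates of these regions differed by less than 1.5 times, as in 785 of the 797, except for the first GPC6 region (3.51-fold and 5.69-fold).

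By the lower fold, the strongest region in a gene body lay in LURAP1L (chromosome 9, 12784558 to 12785641) at 6.39-fold and 6.53-fold, 10.1 kb from the gene start. A further region in the same gene had 3.93-fold and 4.88-fold. DNAH14, a dynein heavy chain gene, had 6.33-fold and 6.29-fold over 405 bp, and CCL28, a chemokine gene, 6.04-fold and 6.27-fold. CLPB, a mitochondrial disaggregase gene, had 5.67-fold and 5.88-fold, SENP7, a SUMO protease gene, 5.63-fold and 5.70-fold, and WDPCP, which acts in cilia, 5.58-fold and 6.58-fold at 416 kb from its start. PPP4R4, a phosphatase subunit gene, had 6.82-fold and 5.56-fold, RHOBTB1 5.50-fold and 5.58-fold, and KCNH7, a potassium channel gene, 5.48-fold and 7.10-fold. With OCIAD1 these are the 10 strongest. OCIAD1 is the only gene of the 10 whose region had a listed transcript start. SENP7 and KCNH7 had no matched entry in the promoter table, so a start of their own could not be found.

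Of the 14 gene lists, 4 held no host gene. No region lay in the 45 genes of secreted liver proteins (median length 14.002 kb), 33 genes of glycolysis and lactate (22.5 kb), 28 of blood and immune cells (51.2 kb) or 35 of neurons and muscle (836 kb). Hosts made up 2.33% of all protein-coding genes, 1.05% of those from 10 to 50 kb long and 3.44% of those from 50 to 100 kb. The median of the blood and immune list falls in the last of these ranges. Against these shares a count of 0 in the first 3 of these lists is near the background. Of genes over 300 kb long, which is below the median of the last list, 9.44% were hosts, and the 0 of 35 was not tested against that share. Insulin, growth factor and kinase signalling had 6 hosts of 37 (16.2%, median length 111 kb): GRB14 (4.13-fold and 4.67-fold) and GRB10 (4.73-fold and 4.04-fold), adaptors that dampen insulin receptor signalling, the kinases PRKCE (3.71-fold and 3.86-fold), JAK1 (4.01-fold and 3.66-fold) and PRKCA, and RPTOR, the scaffold of mTOR complex 1. The RPTOR region, 2011 bp, was the second widest of all (3.47-fold and 3.73-fold). Oncofetal and liver tumour genes had 3 hosts of 27 (11.1%, median length 81.3 kb). They were LIN28B, the receptor gene MET (3.38-fold and 4.24-fold) and TEAD1, a partner of YAP (3.55-fold and 3.08-fold). Chromatin remodellers and modifiers had 4 of 45 (8.89%, median length 134 kb), among them DNMT3A, TET1 and ARID1B (4.18-fold and 3.47-fold). Each share is to be read against the 2.33% of all protein-coding genes and against gene length. Of genes from 100 to 300 kb long, where the medians of the signalling and chromatin lists fall, 7.82% were hosts. The lists were not tested.

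Cholesterol and fatty acid synthesis had 3 hosts of 38 (7.89%, median length 35.2 kb). They were ACACA, the acetyl-CoA carboxylase gene (5.22-fold and 4.25-fold), the elongase gene ELOVL6 (3.53-fold and 3.43-fold) and ACSL5. Of 43 genes of extracellular matrix, adhesion and cytoskeleton, 3 were hosts (6.98%, 145 kb). They were PARD3, ITGB1 (3.54-fold and 3.87-fold) and ACTN1 (4.34-fold and 2.85-fold). Liver transcription factors had 2 of 32 (6.25%, 46.2 kb), HNF4A (4.01-fold and 3.85-fold), a master regulator of hepatocytes, and TCF7L2 (2.73-fold and 2.89-fold). TCF7L2 and APC made up the 2 hosts of 33 Wnt genes (6.06%, 40.9 kb). Liver metabolic enzymes had 1 host of 42 (2.38%, 25.9 kb), the aldehyde dehydrogenase gene ALDH2 (2.91-fold and 3.11-fold). Mitochondrial ribosomal proteins had 1 of 38 (2.63%, 16.5 kb), MRPS28 (5.07-fold and 5.61-fold). Among 29 enzymes that write or erase histone acyl marks, 1 was a host (3.45%, 38.1 kb). It was HDAC4, a class IIa deacetylase gene, with 2 regions, the stronger at 3.46-fold and 3.67-fold. Hosts made up 2.33% of all protein-coding genes, 1.05% of those from 10 to 50 kb long and 7.82% of those from 100 to 300 kb. The median length of the matrix list falls in the last range, and those of the other lists here in the range from 10 to 50 kb. These shares were not tested either. No region lay in ENO1, HDAC1, LDHA, MYC or ACSL3.

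Hosts carried H4K12la at their own outer ends somewhat more often than the background. Both H4K12la lists had a gene-end peak at 69 of the 463 hosts (14.9%), against 10.5% of all protein-coding genes, and both HDAC1 lists at 45 (9.72%), against 8.18%. Among genes of similar length the shares were closer: from 100 to 300 kb, 31 of 202 hosts (15.3%) and 346 of 2380 other genes (14.5%) had the H4K12la peak, and from 10 to 50 kb, 9 of 84 hosts (10.7%) and 909 of 7942 other genes (11.4%). Above 300 kb they were 15.1% of 73 hosts and 9.43% of 700 other genes. The difference was not tested. Of the listed hosts whose region is described above, HNF4A had H4K12la at a gene end, and HDAC4 and ACTN1 had HDAC1 there.

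Between genes, 300 regions lay at a median of 24.5 kb from the nearest protein-coding gene, with quartiles of 9.53 and 81.0 kb. Where the strand of that gene was known, 127 of 242 regions (52.5%) lay upstream of it and 115 downstream. The strongest stood 37.3 kb from BCHE, the butyrylcholinesterase gene (chromosome 3, 165874703 to 165875870), with 8.25-fold and 7.97-fold over 1168 bp, the highest lower value of all 797 regions. A region 51.4 kb from TMTC2 (chromosome 12, 82634604 to 82635498) had 7.07-fold and 9.33-fold. Next came one 9.21 kb from LNPK, a gene that shapes the endoplasmic reticulum (6.48-fold and 6.61-fold), and one 82.6 kb from HNF4G, a nuclear receptor gene related to HNF4A (6.33-fold and 6.57-fold). A region 12.02 kb from TMEM161B had 6.78-fold and 6.23-fold, one 13.99 kb from CEBPD, a leucine zipper transcription factor gene, 6.10-fold and 6.43-fold, and one 6.15 kb from C16orf87 5.93-fold and 6.93-fold. The lncRNA start of LOC105370460 shown above was 42.0 kb from FBXO33 (5.85-fold and 6.37-fold). TFPI, the inhibitor of the tissue factor pathway of clotting, had a region 2.03 kb away (6.81-fold and 5.73-fold).

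Few regions lay very far from genes. There were 60 over 100 kb from a protein-coding gene, 11 over 500 kb and 6 over 1000 kb. The farthest, on chromosome 19 (26602226 to 26602688), was 2472 kb from ZNF254 and was also among the 10 strongest intergenic regions (8.36-fold and 6.03-fold). Others were 1506 kb from LOC124904970 on chromosome 20 (4.37-fold and 4.29-fold), 1314 kb from TMEM121 on chromosome 14 (4.07-fold and 3.77-fold), 1280 kb from ZEB2, a zinc finger gene of epithelial to mesenchymal transition (4.53-fold and 5.10-fold), and 1262 kb from USP9Y on chromosome Y (5.34-fold and 4.82-fold). The 109 regions beyond 50 kb had median folds of 4.19 and 4.29 in replicates 1 and 2, against 3.90 and 4.01 in the 497 regions in gene bodies, a description of peaks that also chose the regions. No filter for repeated or poorly mapped sequence was applied to the peaks here, and the part of such sequence in these folds was not tested.

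Some regions outside protein-coding genes overlapped genes of other types. The share of bases in such genes, or near lncRNA ends, was not counted. The overlaps below therefore have no background of bases beside them. Of the 300 intergenic regions, 108 (36.0%) overlapped a lncRNA gene, 26 a transcribed pseudogene and 5 another pseudogene, and 167 (55.7%) overlapped no gene of any type. In all, 102 of the 797 regions (12.8%, 10.7 to 15.3) lay within 1 kb of an end of a lncRNA gene, 63 of them between protein-coding genes and 39 within one. The shared H4K12la and HDAC1 regions did so in 54 of 270 cases (20.0%, 15.7 to 25.2), so the H4K12la-only share was lower (difference -7.20 points, two-sided Fisher's exact test, adjusted p = 0.00616). That difference was lost with peaks at -log10 q of 5 or more (-3.87 points, Fisher's exact test, adjusted p = 0.336) and without ENO1 replicate 1 (-4.56 points, adjusted p = 0.0579 by Fisher's exact test). Against the 38 of 374 HDAC1-only regions (10.2%, 7.49 to 13.6) the difference of 2.64 points did not pass (Fisher's exact test, adjusted p = 0.21). It turned to -1.001 and -2.24 points without H4K12la replicate 1 and replicate 2. It passed at 8.26 and 5.45 points without HDAC1 replicate 1 and replicate 2, and at 4.76 and 4.03 points without ENO1 replicate 1 and replicate 2.

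At lncRNA ends the strongest regions after LOC105370460 were at LOC642846 (5.86-fold and 5.41-fold), TSHR-AS1 (5.37-fold and 5.91-fold), LINC02008 (5.23-fold and 5.29-fold) and LOC101930100 (6.004-fold and 5.21-fold). SNX10-AS1, antisense to a sorting nexin gene, had 5.12-fold and 5.14-fold at a start 22.7 kb inside its own annotated gene, with summits 68 and 138 bp before the start. A single region (chromosome 10, 21495986 to 21497254; 4.57-fold and 4.22-fold) covered a microRNA gene, MIR1915 (minus strand, GRCh38.p14). Its mature product from the 3′ arm is shown with the seed, bases 2 to 8, in capitals.
hsa-miR-1915-3p: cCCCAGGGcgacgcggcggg

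Because the same peaks chose the regions, their fold and width are given as a description. Fold ran from 2.46 to 8.36 in replicate 1, with a median of 3.93 (quartiles 3.44 and 4.51), and from 2.25 to 9.33 in replicate 2, with a median of 4.03 (3.54 and 4.72). The medians of all peaks in the 2 lists were 4.01 and 4.04, and the H4K12la-only regions at gene ends had medians of 4.08 and 4.25. Both folds were over 3 in 697 regions (87.5%) and over 5 in 60 (7.53%). The fold in replicate 2 was the higher in 460 regions (57.7%). Across the 797 regions, whose peaks share library and depth, Spearman's rank correlation between replicates was 0.686 for fold and 0.408 for peak width. The -log10 of the q value reached 5 in both replicates in 346 regions (43.4%) and was under 3 in at least 1 replicate in 66 (8.28%).

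**Figure D4:**
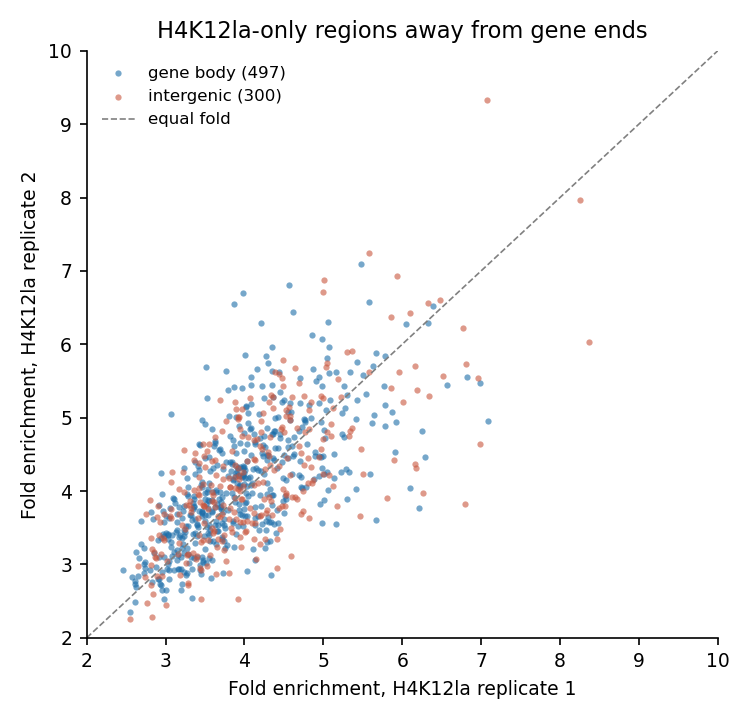
Fold enrichment of each of the 797 H4K12la-only distal regions in H4K12la replicate 1 (x axis) and replicate 2 (y axis), in gene bodies (497, blue) and between genes (300, red), with the line of equal fold. Most lie between 3 and 5 in both, and the 2 above 7 in both are intergenic.

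The regions were narrow and nearly all were single peaks. The merged width ran from 353 to 2033 bp with a median of 728 bp, and 791 of the 797 held 1 peak in each replicate. The regions at gene ends were wider, with a median of 812 bp. The peaks themselves had median widths of 548 and 574 bp in replicates 1 and 2, against 598 and 671 bp at gene ends. The summits of both replicates lay within 200 bp of each other in 502 regions (63.0%), with a median distance of 152 bp. The widest region, in FHL3, a LIM-domain gene (chromosome 1, 37999621 to 38001653), covered 2033 bp because of replicate 2, where the peak was that wide (3.59-fold), while replicate 1 had 1068 bp (2.69-fold). After RPTOR came regions of 1923 bp (152 kb from ZNG1F), 1876 bp (8.34 kb from KIAA0232) and 1803 bp (132 kb from TPST1).

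At the 1 kb limit of the selection the values on both sides were alike. The nearest regions outside it lay 1021 bp from an end of HIPK3 (3.34-fold and 3.84-fold), 1023 bp from DUSP8 (3.47-fold and 3.34-fold) and 1027 bp from FOXK1 (4.26-fold and 3.22-fold). Just inside it stood regions 962 bp from ASPRV1 (2.60-fold and 3.71-fold), 949 bp from RCOR3 (3.09-fold and 4.21-fold) and 940 bp from KIF16B (4.50-fold and 3.63-fold).

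The selection removed every region that touched a peak of the other targets, which in part sets the distances to them. An HDAC1 peak of either library lay within 1 kb of 15 regions (1.88%) within 10 kb of 59 (7.40%) and within 50 kb of 287 (36.0%), at a median distance of 95.2 kb. The H4K12la-only regions at gene ends had an HDAC1 peak within 10 kb in 35 of 812 cases (4.31%), within 50 kb in 191 (23.5%), and a median distance of 145 kb. An ENO1 peak lay within 1 kb of none and within 10 kb of 5 of the 797 regions, at a median of 1398 kb.

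By chromosome, the regions were densest on chromosomes 17 (46 regions, 0.553 per Mb), 20 (35, 0.545), 10 (63, 0.471) and 2 (112, 0.463), against 0.264 per Mb over all 24. Chromosome 2 alone held 14.1% of the regions, and 11.1% and 10.7% of all peaks in the H4K12la lists of replicates 1 and 2. The lowest densities were on Y (1 region, 0.0176 per Mb), X (3, 0.0193) and 19 (5, 0.0854). HDAC1-only distal regions were densest on chromosome 19 (46 regions, 0.786 per Mb), and on chromosome 2 they had 0.116 per Mb. These counts are not corrected for the number of chromosome copies or for assembly gaps, and the part of either in the densities was not tested.

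**Figure D5:**
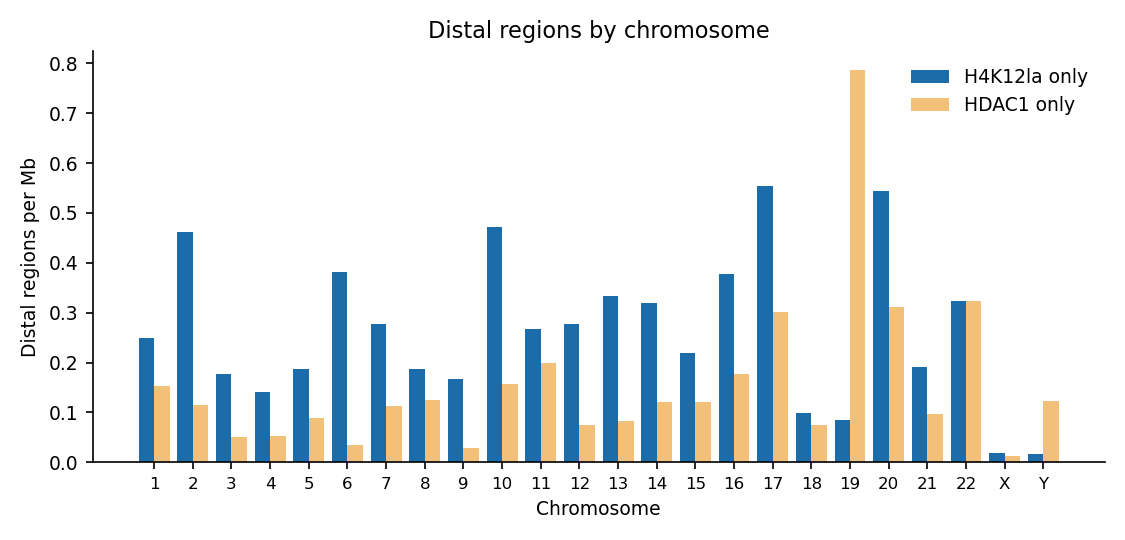
Distal regions per Mb (from the outermost annotated genes) on each chromosome for H4K12la-only (blue) and HDAC1-only regions (yellow). H4K12la-only regions are densest on chromosomes 17, 20, 10 and 2, HDAC1-only regions on chromosome 19.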

How the data were processed

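CUT&Tag libraries for H4K12la, HDAC1 and ENO1 in HepG2 cells, 2 for each target, were grouped by their titles. FastQC, Bowtie2, MACS2, deepTools and the build hg38 are named per the submitters' processing notes, while versions, settings and use of a control library stayed unstated there. The authors deposited 1 narrow peak list per library. Each deposited list gives the fold enrichment of a peak (a ratio within the library), the -log10 of its p value and q value, and a score, the whole part of 10 times that q column. Each deposited list starts just above 2 on the -log10 q scale, a q value of 0.01.

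On chromosomes X, Y and the 22 others, peaks that shared 1 bp or more were merged over all 6 lists. Gene ends were windows of 1 kb on either side of both ends of 19866 protein-coding genes in the RefSeq table of GRCh38.p14, the build of the lists; 718 entries on alternate sequences were left out, told by the drop in position within a chromosome. Where a region held several peaks of a library, the highest fold was taken. Transcript starts and strands came from 35085 RefSeq promoter entries matched by gene ID; 391 of the 463 host genes matched. Shares have Wilson 95% intervals, which cover counting error only. Positions were compared between region classes by two-sided Fisher's exact tests in scipy 1.17.1, adjusted by Benjamini-Hochberg over 6 tests, and over 2 added tests for transcript starts. Classification was tested on simulated data. Alternatives covered the q value, merging, the window, gene types and each library left out. Named regions and genes were the 10 strongest in genes and between genes by the lower of both replicates' folds, the hosts with most regions, up to 4 hosts of each of 14 lists, and the widest, farthest and nearest to the limit; those at transcript starts were added, by strength. The members and lists were chosen with earlier results of these data known.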

Additional observations from a re-analysis of the deposited data

Results flagged for a closer look

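On sequences outside the 24 chromosomes, which the comparisons above do not use, 5 of 371 merged regions had a peak of both H4K12la lists and none of ENO1 or HDAC1. On the 24 chromosomes, 1609 of 13626 merged regions met the same condition. The strongest, on a sequence not placed on these chromosomes, reached 12.1-fold and 10.3-fold in replicates 1 and 2, above every one of the 797 regions on the chromosomes, and the others lay between 1.91-fold and 3.90-fold in replicate 1.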

How the results depend on the processing

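The gene-body and far-from-gene differences against HDAC1-only regions kept direction and passed under all 12 alternatives; against the shared class the gene-body difference did too. The far share against the shared class was -5.01 points (adjusted p = 0.0651, Fisher's exact test) where ends of every gene type were windowed. With peaks at -log10 q of 5 or more there were 416 regions in 245 host genes, with median folds of 4.34 and 4.50 and widths of 629 and 688 bp; the lncRNA-end differences were -3.87 points (shared) and -2.71 points (HDAC1-only), and the transcript-start differences 2.91 and 2.84 points, none passing. With windows of 500 bp the transcript-start share was 23.2% and its difference from the shared class 0.293 points. With ends of every gene type the gene-body share was 68.0%, the far share 11.2%, the transcript-start share 12.3%, and the transcript-start differences 0.178 (shared) and 3.62 points (HDAC1-only), neither passing; lncRNA-end shares cannot be had there, by construction.

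Leaving out each library in turn gave 799 to 2638 regions and 465 to 1307 hosts, the highest without H4K12la replicate 1, where 1 list then chose the regions; without H4K12la replicate 2 there were 1755 regions and 908 hosts. The ranges were 10.2% to 13.99% for lncRNA ends, 15.1% to 20.0% for transcript starts, 3.91 to 3.94 for the median fold in replicate 1 and 3.87 to 4.06 in replicate 2, and 472 to 564 bp and 472 to 597 bp for the median widths. The lncRNA-end difference ranged from -10.0 to -4.56 points against shared and from -2.24 to 8.26 points against HDAC1-only regions (passing without either HDAC1 or either ENO1 library, turned without either H4K12la library: -1.001 and -2.24 points). The transcript-start difference ranged from -6.46 to 1.83 points against shared regions (passing without H4K12la replicate 1; turned without ENO1 replicate 1, at 1.83, and replicate 2, at 0.659) and from -1.06 to 12.5 points against HDAC1-only regions. The causes were not tested.

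No paired analysis was possible because each region was required in both replicates, so the replicate number is no unit of the tests. Depth is unknown, so a peak missing from an ENO1 or HDAC1 list limits what "only" can mean.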
